A study of Homo sapiens with 14 samples.

Results

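The YPEL family (YPEL1, YPEL2, YPEL3, YPEL4 and YPEL5) comprises 5 small human proteins, of which YPEL5 is the one least like the rest in sequence, and it was measured here by 11 probe sets. The members were all probe sets whose annotation names a single YPEL gene, 11 of the 54675 probe sets on the array and of the 42892 with a gene symbol, and 5 of the 19775 genes measured by a probe set of their own. YPEL1 and YPEL2 had 3 probe sets each, YPEL3 and YPEL5 had 2 each and YPEL4 had 1. The family was chosen on its response to the treatment, that is on the change of these same probe sets between AS605240 and vehicle, so the treatment values of the 5 genes are given as a description, with no test.

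YPEL proteins take their name from the fruit fly gene yippee and carry a single zinc-binding Yippee domain that is conserved from yeast to mammals. YPEL5 is a subunit of the CTLH complex, a RING-type E3 ubiquitin ligase that marks proteins for degradation and is the human counterpart of the yeast GID complex. YPEL3 is known as a p53-responsive gene that slows the growth of human cells, whereas the functions of YPEL1, YPEL2 and YPEL4 are less well described.

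The RNA of 7 established T-cell acute lymphoblastic leukemia (T-ALL) lines, Jurkat, TALL-1, Molt-4, CCRF-CEM, ALL-SIL, HPB-ALL and P12-ICHIKAWA, was hybridised to 14 Affymetrix HG-U133 Plus 2.0 arrays, 2 per line. In each line 1 culture received AS605240, a small molecule inhibitor of the lipid kinase PI3K, at the concentration that was the IC50 of that line, and 1 culture received vehicle, both for 6 h. The concentration therefore differed between lines, and each line had 1 array per treatment, so that the 7 lines are the replicates and no error within a line could be measured. The comparison asks which YPEL transcripts differ in level when PI3K is inhibited, and whether YPEL5 does so to another extent than its paralogs.

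The arrays had a median signal of 19.9 to 25.0, and 36.6% to 39.6% of the probe sets of an array were over a signal of 50, below which a probe set is called dim here. T-cell markers were present: 7 of the 8 listed, among them CD3D, CD3E and LCK, were over 50 on all 14 arrays, and their summed signal was 6433 to 14065 with AS605240 and 7035 to 14951 with vehicle. Of the 4 B-cell markers measured, MS4A1 and PAX5 were over 50 on none, and the rest on some arrays but not all. All 4 measured myeloid markers were over 50 on none. Of the 6 epithelial and fibroblast markers, KRT8 and COL1A1 were over 50 on all 14 arrays, EPCAM, KRT18 and COL1A2 on none, and PDGFRB on some. The summed signal of the epithelial and fibroblast list was 335 to 700 with AS605240 and 266 to 807 with vehicle, that of the B-cell list 47.4 to 431 with AS605240 and 46.7 to 373 with vehicle, and that of the myeloid list 40.4 to 88.9 with AS605240 and 51.8 to 83.7 with vehicle. The vehicle arrays of P12-ICHIKAWA and TALL-1 correlated at r = 0.994 over 19775 genes, each by 1 probe set. The other pairs among the 21 pairs of lines were at 0.908 to 0.953, so P12-ICHIKAWA and TALL-1 are closer to each other than any other pair. The median log2 level of the probe sets with a gene symbol was higher with AS605240 in all 7 lines, by 0.0048 to 0.061. The mean change of the 24 probe sets for the polyA RNAs spiked in before labelling was also above 0 in all 7 lines. It was 0.22 ± 0.17 (SD, n = 7), from 0.0046 in CCRF-CEM to 0.55 in Molt-4. The part of these 2 shifts in the changes below was not tested.

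The sequences just upstream of 3 members are shown because their responses differed. YPEL5 was higher in every line. The brightest probe set of YPEL2 was measurable after treatment in some lines and dim on both arrays in others. YPEL3 was dim, with 2 probe sets that differed. Each run holds 250 bases before and 10 bases from the annotated transcription start, on the strand of the gene, from RefSeq on GRCh38.p14. YPEL5 lies at chr2:30146757-30147016 on the plus strand, YPEL2 at chr17:59331405-59331664 on the plus strand and YPEL3 at chr16:30096204-30096463 on the minus strand. Capitals mark matches to the motifs searched.
YPEL5: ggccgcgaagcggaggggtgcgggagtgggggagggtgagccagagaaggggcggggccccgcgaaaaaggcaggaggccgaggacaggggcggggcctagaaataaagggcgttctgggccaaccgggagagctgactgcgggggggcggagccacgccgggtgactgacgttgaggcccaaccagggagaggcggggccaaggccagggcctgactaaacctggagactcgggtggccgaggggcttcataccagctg
YPEL2: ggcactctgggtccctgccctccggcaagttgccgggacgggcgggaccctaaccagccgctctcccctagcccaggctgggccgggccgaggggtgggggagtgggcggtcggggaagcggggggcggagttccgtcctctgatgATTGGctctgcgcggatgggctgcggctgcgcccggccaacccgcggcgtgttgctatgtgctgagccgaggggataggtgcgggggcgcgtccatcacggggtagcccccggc
YPEL3: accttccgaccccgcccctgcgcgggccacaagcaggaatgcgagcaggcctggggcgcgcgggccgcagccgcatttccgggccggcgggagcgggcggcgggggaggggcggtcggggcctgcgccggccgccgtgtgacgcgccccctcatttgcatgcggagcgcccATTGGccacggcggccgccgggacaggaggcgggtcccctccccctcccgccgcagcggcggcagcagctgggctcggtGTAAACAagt

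Of the 5 genes, 4 had an entry among the RefSeq promoters, each scanned from 250 bases before to 50 bases after the start. Their GC content was 70% for YPEL5, 75% for YPEL2, 79% for YPEL3 and 62.3% for YPEL4, all above the median of 58.3% over 27305 promoters. The motifs below were searched on both strands: GTAAACA, the letters read by FOXO factors, which Akt phosphorylates downstream of PI3K, found in 3.41% of all promoters; CACGTG, the E-box, in 7.43%; TGACGTCA, the cyclic AMP response element, in 1.98%; and CCAAT in 35.7%. The window of YPEL5 held none of them, nor did that of YPEL4. YPEL2 held CCAAT on the opposite strand, read as ATTGG, starting at position -104 from the start. YPEL3 held the same letters at -79, and GTAAACA starting at +1, the first transcribed base. None of these matches overlapped another. A match describes letters in a window and is not evidence of binding.

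YPEL5, the CTLH subunit, was over a signal of 50 on all 14 arrays and was higher with AS605240 than with vehicle in all 7 lines by both of them. By 217783_s_at the signal was 171 at its lowest (Jurkat), 351 at the median and 628 at its highest (P12-ICHIKAWA) with AS605240, against 59.7 (Jurkat), 149 and 291 (P12-ICHIKAWA) with vehicle. Jurkat was the lowest and P12-ICHIKAWA the highest under both treatments, and the groups overlapped, with 4 of the 7 vehicle arrays below the lowest AS605240 array. Within a line the log2 change of signal + 16 was 1.10 ± 0.21 (SD, n = 7, SE 0.074), a 2.14-fold higher value with AS605240. The change was smallest in CCRF-CEM (0.74) and largest in Molt-4 (1.39), followed by Jurkat (1.31).

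The other YPEL5 probe set, 222408_s_at, gave 133 (Jurkat), 280 and 475 (HPB-ALL) with AS605240, against 54.9 (Jurkat), 122 and 224 (HPB-ALL) with vehicle. Again CCRF-CEM had the smallest change, 0.65, and Molt-4 the largest, 1.10, around a mean of 0.97 ± 0.15 (SD, n = 7, SE 0.065; 1.95-fold). Over the 7 lines the vehicle levels of the 2 probe sets correlated at r = 0.963 and their changes at r = 0.908, on shared arrays and RNA.

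The level of YPEL5 differed between the lines. Ordered by the mean of the 2 arrays, 217783_s_at placed P12-ICHIKAWA (log2 level 8.80), TALL-1 (8.70) and HPB-ALL (8.60) above Molt-4 (7.82), ALL-SIL (7.81) and CCRF-CEM (7.74), with Jurkat last (6.90). Only the gaps below HPB-ALL (0.78) and below CCRF-CEM (0.84) exceeded 2 residual SDs (residual SD 0.15), so the lines within each of the first 2 groups were not told apart. By 222408_s_at the same gaps stood, below P12-ICHIKAWA (0.42) and below CCRF-CEM (0.74), and HPB-ALL was also above TALL-1 by 0.25 (residual SD 0.11). The line with the lowest level, Jurkat, had the second largest change on both probe sets, and CCRF-CEM, the next lowest, had the smallest.

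**Figure D1:**
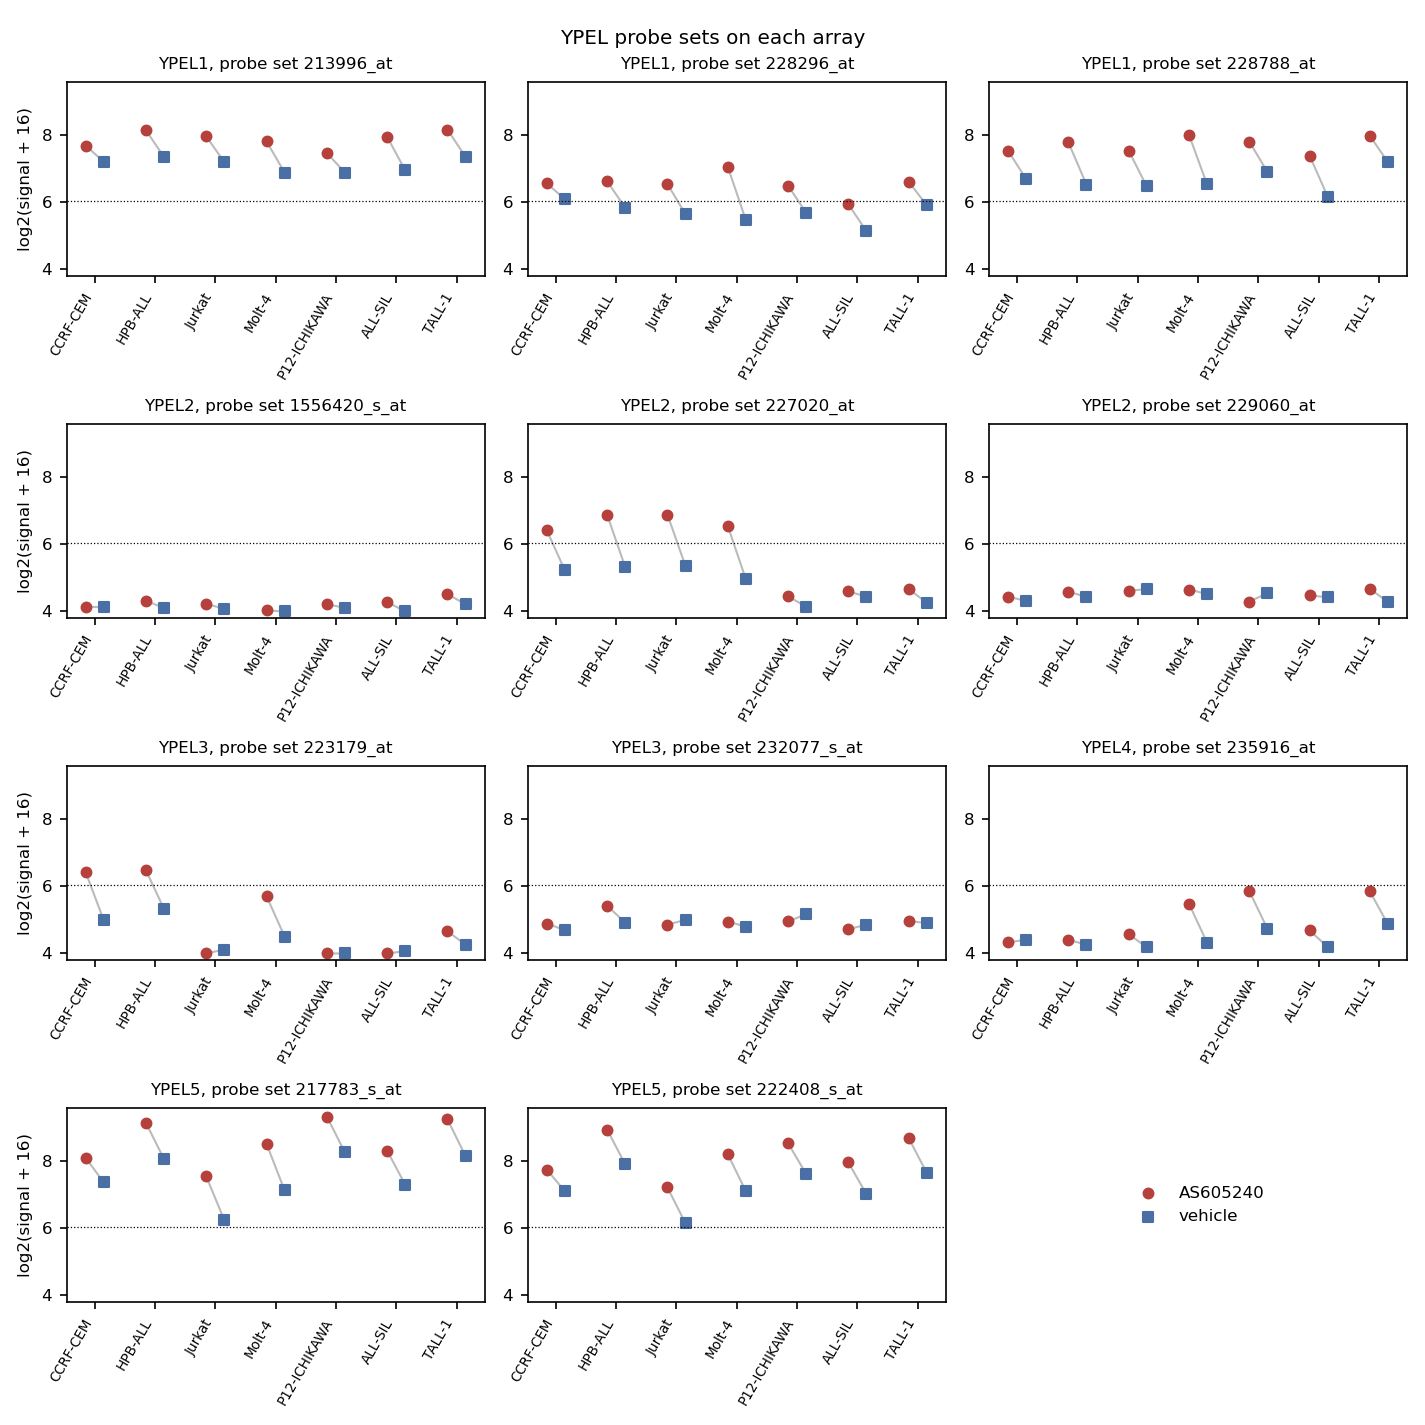
Log2(signal + 16) of the 11 YPEL probe sets on each array, 1 panel per probe set, with AS605240 (red circles) left of vehicle (blue squares) in each of the 7 lines and a grey line joining the 2 arrays of a line. The dotted line marks a signal of 50. Both YPEL5 probe sets and 2 YPEL1 probe sets (213996_at and 228788_at) stay above it on all 14 arrays, and 4 of the 11 probe sets never reach it.

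YPEL1 was higher with AS605240 in all 7 lines by each of its 3 probe sets. The brightest, 213996_at, had a signal of 161 (P12-ICHIKAWA), 231 and 272 (TALL-1) with AS605240, against 102 (Molt-4), 131 and 148 (HPB-ALL) with vehicle. Every AS605240 array was above every vehicle array. The log2 change was 0.77 ± 0.18 (SD, n = 7, SE 0.069; 1.70-fold), from 0.48 in CCRF-CEM to 1.0 in ALL-SIL.

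Probe set 228788_at gave a larger change, 1.08 ± 0.25 (SD, n = 7, SE 0.081; 2.11-fold), close to that of YPEL5. Its signal was 152 (ALL-SIL), 205 and 242 (Molt-4) with AS605240, against 56.2 (ALL-SIL), 76.6 and 130 (TALL-1) with vehicle, again with no overlap between the groups. The change was smallest in TALL-1 (0.79) and largest in Molt-4 (1.48). The remaining YPEL1 probe set, 228296_at, had a change of 0.87 ± 0.35 (SD, n = 7, SE 0.10; 1.82-fold), at 45.4 (ALL-SIL), 78.8 and 118 (Molt-4) with AS605240 and 19.3 (ALL-SIL), 35.7 and 52.1 (CCRF-CEM) with vehicle. Here the groups met at a single pair, ALL-SIL with AS605240 lying below CCRF-CEM with vehicle.

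The lines were less clearly ordered for YPEL1. No gap between neighbouring lines exceeded 2 residual SDs by 213996_at or 228788_at, and by 228296_at only ALL-SIL stood apart, 0.55 below P12-ICHIKAWA. Between the 3 probe sets the vehicle levels correlated at r = 0.33 to 0.68 and the changes at r = 0.57 to 0.79 over 7 lines on shared arrays.

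YPEL2 separated the lines into those in which 227020_at, its brightest probe set, was measurable after treatment and those in which it was dim on both arrays. With AS605240 the signal was 69.6 in CCRF-CEM, 102 in HPB-ALL, 102 in Jurkat and 77.8 in Molt-4, against 21.3, 24.0, 24.8 and 15.2 with vehicle in the same lines. In P12-ICHIKAWA, ALL-SIL and TALL-1 it was 5.91, 8.23 and 9.40 with AS605240, against 1.66, 5.75 and 3.18 with vehicle. The first 4 lines thus passed 50 only under AS605240, and the other 3 did not pass it at all.

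The change of 227020_at was 1.20 in CCRF-CEM, 1.56 in HPB-ALL, 1.54 in Jurkat and 1.59 in Molt-4, and 0.31 in P12-ICHIKAWA, 0.16 in ALL-SIL and 0.41 in TALL-1. Its mean of 0.96 ± 0.65 (SD, n = 7, SE 0.17; 1.95-fold) therefore lies between the values of the lines and describes few of them. Since the offset of 16 exceeds the signal in the 3 dim lines, their change on this scale is held close to 0. By level, the gap of 1.24 between Molt-4 and ALL-SIL was the only one over 2 residual SDs (residual SD 0.46). The other YPEL2 probe sets were over 50 on no array, with changes of 0.16 ± 0.11 (1556420_s_at, above 0 in 7 of 7 lines) and 0.08 ± 0.19 (229060_at, above 0 in 5 of 7 lines; SD, n = 7 each). Their levels did not follow those of 227020_at (r = -0.20 and 0.25 over the 7 vehicle arrays).

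YPEL3, the p53-responsive member, was dim, and its 2 probe sets differed. Probe set 223179_at had a signal of 70.1 in CCRF-CEM, 73.2 in HPB-ALL, 36.1 in Molt-4 and 9.25 in TALL-1 with AS605240, against 15.8, 24.2, 6.72 and 3.23 with vehicle. In Jurkat, P12-ICHIKAWA and ALL-SIL it was at 0.015, 0.0051 and 0.0094 with AS605240, against 1.37, 0.0047 and 0.79 with vehicle, which is next to no signal on any of these arrays. Its change was 1.44 in CCRF-CEM, 1.20 in Molt-4, 1.15 in HPB-ALL and 0.39 in TALL-1, whereas it was -0.12 in Jurkat, -0.069 in ALL-SIL and 3.2e-05 in P12-ICHIKAWA. The mean was 0.57 ± 0.67 (SD, n = 7, SE 0.18; 1.49-fold).

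The other probe set, 232077_s_at, has the higher mean of log2(signal + 16) over the arrays and so represents the gene where 1 probe set is used, but it was over 50 on none. It gave 10.3, 14.9 and 26.9 at the lowest, median and highest with AS605240, against 9.87, 14.1 and 20.0 with vehicle, and its change was 0.057 ± 0.25 (SD, n = 7), above 0 in 4 of 7 lines. HPB-ALL had the largest change (0.50), and without that line the mean was -0.018. The vehicle levels of the YPEL3 probe sets correlated at r = -0.53 and their changes at r = 0.85 over the 7 lines.

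YPEL4 was over 50 on no array. Its single probe set, 235916_at, had a signal of 4.10 (CCRF-CEM), 9.79 and 42.1 (P12-ICHIKAWA) with AS605240, against 2.17 (Jurkat), 4.0 and 13.1 (TALL-1) with vehicle. P12-ICHIKAWA, TALL-1 and Molt-4 were the high AS605240 arrays, at 42.1, 41.6 and 28.7, and their changes of 1.12, 0.98 and 1.16 were the 3 largest. ALL-SIL (0.50), Jurkat (0.39) and HPB-ALL (0.15) had smaller changes, and CCRF-CEM was below 0 (-0.084), for a mean of 0.60 ± 0.49 (SD, n = 7, SE 0.13; 1.52-fold).

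Across the family, all 11 mean changes were above 0, with a median of 0.77 against 0.013 over all probe sets. In 7 of the 11 the value was higher in all 7 lines, as in 9.13% of all probe sets, and in 2 of the 11, both of YPEL1, the groups of arrays did not overlap, as in 0.198% of all. All 11 mean changes were also above 0 after quantile normalization and after median centring of the arrays. With P12-ICHIKAWA and TALL-1 taken as 1 line, the mean change by the brightest probe set was 0.78 for YPEL1, 1.07 for YPEL2, 0.080 for YPEL3, 0.53 for YPEL4 and 1.10 for YPEL5. The treatment contrast was part of how the family was chosen, so these counts describe it.

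**Figure D2:**
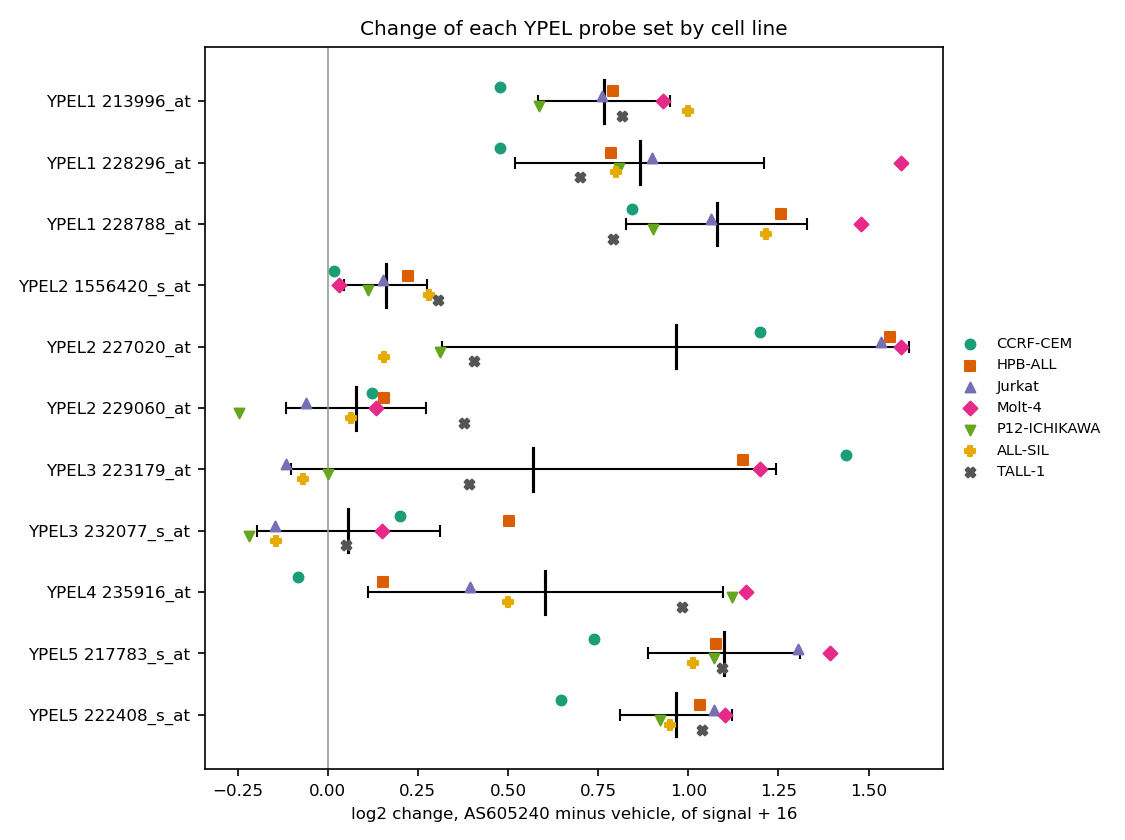
Log2 change of signal + 16, AS605240 minus vehicle, for the 11 YPEL probe sets, with 1 symbol per cell line, the mean as a vertical bar and the SD over 7 lines as a horizontal bar. YPEL5 and YPEL1 lie right of 0 in every line, YPEL2 227020_at falls into 4 lines at 1.20 or above and 3 at 0.41 or below, and CCRF-CEM is the lowest line of both YPEL5 probe sets.

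The changes differed between lines. The mean change over the 5 genes, each by its brightest probe set, was 1.04 in Molt-4, 0.82 in HPB-ALL, 0.77 in Jurkat, 0.67 in TALL-1, 0.57 in P12-ICHIKAWA, 0.51 in CCRF-CEM and 0.51 in ALL-SIL. All 11 probe sets were above 0 in HPB-ALL, Molt-4 and TALL-1, 10 in CCRF-CEM, 9 in P12-ICHIKAWA, 9 in ALL-SIL and 8 in Jurkat. Molt-4, the line with the largest family mean, was also the line with the largest change of the spiked polyA RNAs (0.55), and CCRF-CEM, with one of the 2 smallest family means, had the smallest (0.0046). The part of this in the differences between lines was not tested. On the log2 scale with its offset, different lines carried different members. CCRF-CEM had the smallest change of YPEL5 and YPEL4 but the largest of YPEL3 223179_at. P12-ICHIKAWA and TALL-1 had small changes of YPEL2 227020_at but 2 of the 3 largest of YPEL4. The YPEL2 signal was below the offset in P12-ICHIKAWA (5.91 with AS605240, 1.66 with vehicle) and in TALL-1 (9.40 and 3.18). The YPEL2 changes of these lines are thus held close to 0 and do not show a weaker response. YPEL4 was dim on all arrays.

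Set against its paralogs within each line, by the brightest probe set of each gene, the change of YPEL5 was on average the larger in all 4 pairings with the offset of 16, by amounts that depended on the paralog, and the smaller against YPEL2 with an offset of 4. It exceeded that of YPEL1 by 0.33 ± 0.18 and did so in 7 of 7 lines, from 0.015 in ALL-SIL to 0.55 in Jurkat. It exceeded that of YPEL4 by 0.50 ± 0.40 in 6 of 7 lines, P12-ICHIKAWA being the exception (-0.050), and that of YPEL3 by 1.04 ± 0.35 in 7 of 7 (SD, n = 7 each).

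Against YPEL2 the difference was 0.13 ± 0.61 (SD, n = 7), smaller than its spread. The change of YPEL5 was the larger in 3 of 7 lines, with a difference of up to 0.86 in ALL-SIL, and the smaller in 4, with a difference of down to -0.48 in HPB-ALL. Against the mean of the 4 paralogs, YPEL5 was ahead in 7 of 7 lines, by 0.50 ± 0.15 (SD, n = 7), from 0.29 in CCRF-CEM to 0.67 in Jurkat.

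The choice of probe set mattered for these differences. With 228788_at in place of 213996_at for YPEL1, YPEL5 was ahead in 3 of 7 lines and the difference was 0.020 ± 0.21. With 223179_at in place of 232077_s_at for YPEL3, it was ahead in 5 of 7 lines by 0.53 ± 0.75 (SD, n = 7 each). The other YPEL5 probe set, 222408_s_at, had a mean change of 0.966. That was close to the 0.965 of YPEL2 227020_at and below the 1.08 of YPEL1 228788_at. It was above the means of the brightest probe sets of YPEL1 (0.77), YPEL3 (0.057) and YPEL4 (0.60). In ALL-SIL the change of 222408_s_at, 0.951, was below the 0.999 of YPEL1 213996_at. YPEL2, YPEL3 and YPEL4 were near or below the offset in many arrays, which draws their changes towards 0: with an offset of 4 in place of 16 the lead over the mean of the 4 paralogs was 0.33. At that offset the mean change was 1.16 for YPEL5, 1.35 for YPEL2, 1.05 for YPEL4, 0.82 for YPEL1 and 0.088 for YPEL3, so that YPEL2 stood above YPEL5. With an offset of 64 it was 0.92 for YPEL5, 0.60 for YPEL1, 0.51 for YPEL2, 0.24 for YPEL4 and 0.024 for YPEL3.

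**Figure D3:**
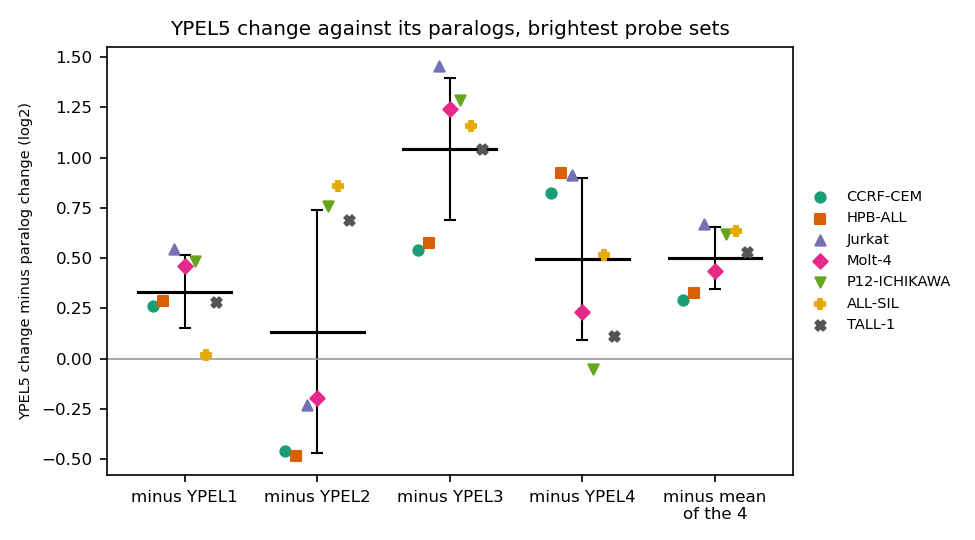
Log2 change of YPEL5 minus that of each paralog and minus the mean of the 4, by brightest probe sets, with 1 symbol per cell line, the mean as a horizontal bar and the SD over 7 lines as a vertical bar. Values above 0 mean a larger change of YPEL5. All 7 lines lie above 0 against YPEL1, YPEL3 and the mean, and 3 of 7 do against YPEL2.

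Among the 9185 other genes with a signal over 50 on at least 7 arrays, those nearest to YPEL5 in their 7 changes were CCNG2, an atypical cyclin (root mean square distance 0.11 on the log2 scale, mean change 1.15), HBP1, a transcriptional repressor with an HMG box (0.12, mean change 1.02), and PBXIP1, a protein that binds PBX factors (0.19, mean change 1.12). All 3 were above 0.70 in every line. CCNG2 also had the level most like that of YPEL5 over the 14 arrays (r = 0.972), ahead of KIAA0319L (r = 0.934), a membrane protein that serves as the receptor of adeno-associated virus, and HBP1 (r = 0.930). The 14 arrays include pairs from 1 line and share the treatment.

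**Figure D4:**
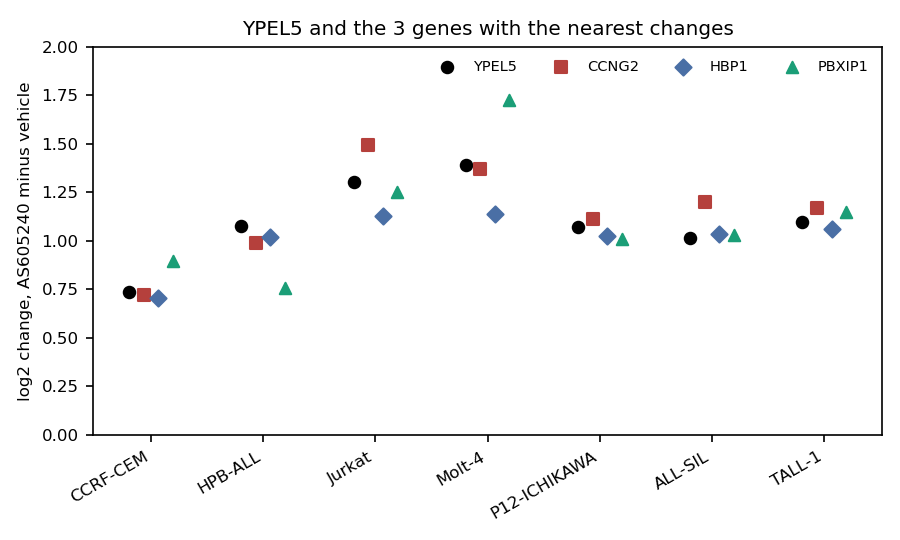
Log2 change, AS605240 minus vehicle, in each of the 7 lines for YPEL5 (black circles) and the 3 genes with the nearest changes, CCNG2, HBP1 and PBXIP1. CCRF-CEM is the lowest line of YPEL5, CCNG2 and HBP1, and PBXIP1 departs most in Molt-4, where it reached 1.73.

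The genes nearest to YPEL1 were AGO4, an Argonaute protein of small RNA silencing (distance 0.090, mean change 0.70), ZBTB20, a zinc-finger repressor (0.13, mean change 0.68), and SUN2, a protein of the inner nuclear membrane (0.14, mean change 0.79). For YPEL3 232077_s_at they were the receptor phosphatase PTPRM (0.076), NRBP1 (0.096) and the chromatin remodeller EP400 (0.10), with mean changes of 0.056, 0.056 and 0.032. By this distance the genes nearest to YPEL2 and YPEL4 lay further off. The distance is not scaled to the spread of the changes, so it does not rank likeness between members. That spread was larger for YPEL2 and YPEL4 (SD 0.65 and 0.49) than for YPEL3 232077_s_at (0.25). The probe sets of YPEL2, YPEL3 and YPEL4 used here did not themselves pass the signal filter set for the other genes. The nearest to YPEL4 were C10orf143 (0.24), the exonuclease ISG20 (0.25) and CALCOCO1 (0.26), and the nearest to YPEL2 were the inositol phosphate kinase IP6K2 (0.44), N4BP2L1 (0.48) and the chromatin reader ING4 (0.49).

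The subunits that YPEL5 joins in the CTLH complex had smaller differences than YPEL5 itself. The YPEL family was chosen on this contrast, so no conclusion is drawn from that order. Of 10 partners measured, 2 passed an adjusted p under 0.05 as higher and 1 as lower in limma over 19775 genes, and 7 did not pass, with a median change of 0.13 against 0.013 over all genes. Over all genes 11.8% passed as higher (2339) and 7.03% as lower (1390), and with each array centred on its median 1901 passed as higher and 1840 as lower. WDR26, a WD-repeat subunit, was higher in 7 of 7 lines by 0.27 (SE 0.052, adjusted p = 0.00226), at 505, 573 and 896 with AS605240 against 420, 486 and 725 with vehicle for the lowest, median and highest array. RANBP10, a scaffold subunit, was higher in 7 of 7 lines by 0.20 (SE 0.058, adjusted p = 0.0309), a call lost without any one of CCRF-CEM, Molt-4, P12-ICHIKAWA, ALL-SIL or TALL-1 (adjusted p 0.061 to 0.086).

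ARMC8, an armadillo-repeat subunit, was lower in 7 of 7 lines by its brightest probe set, at 96.4, 149 and 201 with AS605240 against 149, 193 and 262 with vehicle, a change of -0.40 (SE 0.080, adjusted p = 0.00306). Of its other probe sets, 203487_s_at was also below 0 on average (-0.17), but 1555279_at, 1555281_x_at and 219094_at were above 0 (0.23, 0.22 and 0.20), so that the mean over its probe sets was 0.0015. WDR26 was not uniform either: 224897_at was lower in 7 of 7 lines, by -0.30 on average, and with the mean of its probe sets WDR26 did not pass (adjusted p = 0.772; range over the alternatives that kept the cell line 1.63e-04 to 0.772). RANBP10 also did not pass with the mean of its probe sets (adjusted p = 0.637).

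The partners that did not pass included the RING subunits RMND5A (-0.017), RMND5B (0.24) and MAEA (0.15), the scaffold RANBP9 (0.05), and GID8 (0.14), GID4, the substrate receptor (0.13), and MKLN1 (0.08). GID4 had a second probe set, 220058_at, at -0.39 and below 0 in 7 of 7 lines.

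Of 4 proteins reported as substrates of the CTLH complex, transcripts of 2 were higher and of 1 lower. Over all genes, 11.8% passed as higher and 7.03% as lower. The list was chosen with earlier results of these data and the study's called genes known, so these counts and the adjusted p-values of its genes are a description. HBP1 was higher in 7 of 7 lines, at 168, 322 and 423 with AS605240 against 68.4, 151 and 200 with vehicle (change 1.02, SE 0.063, adjusted p = 2.88e-06), and it is the gene that also stood second in likeness to YPEL5. Its other probe sets were over 50 on no array, with changes of 0.78 (207361_at) and -0.047 (236645_at), and with the mean over probe sets HBP1 was higher by 0.58 (adjusted p = 4.45e-05; range over the alternatives that kept the cell line 4.44e-07 to 6.04e-04). NMNAT1, an enzyme of NAD synthesis in the nucleus, was higher in 7 of 7 lines by 0.29 (SE 0.061, adjusted p = 0.00383), and its 3 probe sets gave 0.29 to 0.49.

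HMGCS1, an enzyme of cholesterol synthesis, was lower in 7 of 7 lines, at 155, 221 and 439 with AS605240 against 239, 467 and 1674 with vehicle. Its change was -1.0 (SE 0.17, adjusted p = 0.00124), from -2.43 in Jurkat to -0.42 in CCRF-CEM. ZMYND19 did not pass (-0.09, SE 0.076, adjusted p = 0.5). The list had a median change of 0.10.

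Outside the family, the Yippee fold occurs in cereblon and in the Mis18 proteins of the centromere. CRBN, the cereblon gene, was higher in 6 of 7 lines by 0.22 (SE 0.070, adjusted p = 0.0434), at 205, 496 and 602 with AS605240 against 216, 432 and 492 with vehicle. OIP5 was lower in 6 of 7 lines, at 187, 398 and 596 with AS605240 against 262, 559 and 626 with vehicle (change -0.26, SE 0.072, adjusted p = 0.0221), and MIS18A did not pass (-0.11, SE 0.063, adjusted p = 0.297). Both calls were near the threshold: CRBN did not pass without any one of HPB-ALL, Jurkat, P12-ICHIKAWA, ALL-SIL or TALL-1 (adjusted p 0.0726 to 0.119) and OIP5 not without CCRF-CEM, P12-ICHIKAWA or TALL-1 (adjusted p 0.0654 to 0.0723).

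The genes next to the YPEL genes in the genome, 2 protein-coding genes on each side, were also examined. Of 19 measured, 4 passed as higher, 1 as lower and 14 did not pass, with a median change of 0.080, where 11.8% of all genes passed as higher and 7.03% as lower. Beside YPEL5 on chromosome 2, ALK (-0.059) and LCLAT1 (-0.10) did not pass, while CLIP4, which encodes a microtubule-binding protein, was higher by 0.45 (SE 0.067, adjusted p = 4.18e-04, 7 of 7 lines; 0.28 with the mean over its probe sets) and LBH by 0.29 (SE 0.085, adjusted p = 0.0276, 6 of 7 lines). LBH did not pass without any one of Jurkat, Molt-4, ALL-SIL or TALL-1 (adjusted p 0.0604 to 0.0843).

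Beside YPEL2 on chromosome 17, the RNA helicase gene DHX40 was higher by 0.43 (SE 0.061, adjusted p = 2.90e-04, 7 of 7 lines) and GDPD1 by 0.23 (SE 0.075, adjusted p = 0.0489, 6 of 7 lines). The GDPD1 call was lost without any single line other than CCRF-CEM (adjusted p 0.0554 to 0.139). With the mean of its probe sets GDPD1 also did not pass in limma (0.020, adjusted p = 0.871). Beside YPEL1 on chromosome 22, SDF2L1, a protein of the endoplasmic reticulum, was lower in 7 of 7 lines, at 58.3, 102 and 274 with AS605240 against 150, 188 and 466 with vehicle (change -0.85, SE 0.096, adjusted p = 6.53e-05), opposite in sign to YPEL1. PPIL2, whose annotated span overlaps YPEL1, did not pass (0.11). None of the 8 measured neighbours of YPEL3 and YPEL4 passed, the values running from -0.16 (UBE2L6) to 0.18 (MAPK3).

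**Figure D5:**
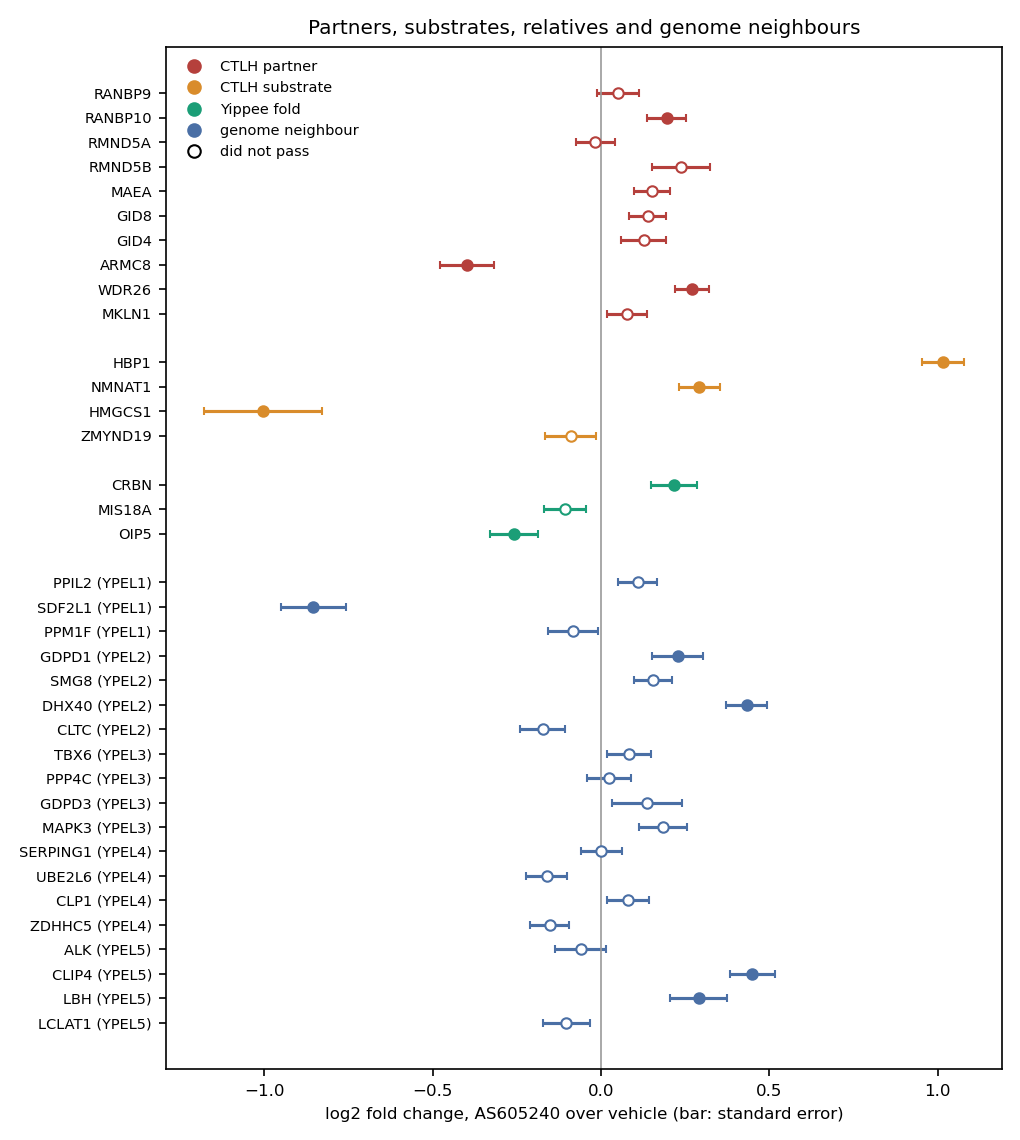
Log2 fold change, AS605240 over vehicle, of the CTLH partners, the reported substrates, the other genes with a Yippee fold and the genome neighbours (YPEL gene in brackets), with the standard error from limma as a bar. Filled circles passed an adjusted p under 0.05 and open ones did not. HBP1 at 1.02 is the highest, and HMGCS1 at -1.0 and SDF2L1 at -0.85 are the lowest.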

How the data were processed

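The authors deposited a linear signal intensity per probe set and array. Their methods describe iterPLIER summaries, and PLIER and Affymetrix Expression Console (version 1.3.1.187) appear in the submitters' processing notes. How the arrays were normalized beforehand was not given in the sources used here. An offset of 16 was added and log2 taken, with no probe set removed. Gene symbols came from the platform annotation, updated through the gene ID in a RefSeq table, and each gene was represented by its single-gene probe set with the highest mean on the log2 scale, called its brightest. Treated and vehicle arrays were compared with limma 3.58.1 (R 4.3.3), taking the cell line, which pairs the arrays, as a block. The Benjamini-Hochberg adjustment covered 42892 probe sets or 19775 genes. Calls were made at an adjusted p under 0.05, and in the counts of probe sets also with a fold over 1.5; no p-value is given for the YPEL probe sets. The script was tested on simulated data. Precision is limited by the number of arrays.

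The YPEL members, the gene lists and the motifs were chosen with earlier results of these data, and the study's list of called genes, known. The adjusted p-values of the listed genes are therefore a description too. All YPEL probe sets, all measured list genes, the genome neighbours, and the 3 genes nearest to each YPEL gene in root mean square distance (for YPEL5 also the 3 highest correlations) were named. The alternatives were offsets of 4 and 64, quantile normalization, median centring, a dim filter (signal over 50 on at least 7 arrays), all probe sets except controls, the mean over probe sets, no block, P12-ICHIKAWA and TALL-1 as 1 line, and each line left out. One item is not reported here.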

Additional observations from a re-analysis of the deposited data

Results flagged for a closer look

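Of 69 groups of 7 values, 7 held a single line far from the rest, by the gap to its nearest neighbour as a share of the range (Dixon's critical value 0.568), and chance flags about 1 in 20 groups. Among the YPEL genes, the change of YPEL1 228296_at was highest in Molt-4, at 1.59 against 0.90 in the next line, and that of YPEL5 222408_s_at was lowest in CCRF-CEM, at 0.65 against 0.92. The log2 level of YPEL3 232077_s_at with AS605240 was highest in HPB-ALL, at 5.42 against 4.96. HBP1, like YPEL5, changed least in CCRF-CEM, at 0.70 against 1.02 in the next line. HMGCS1 changed by -2.43 in Jurkat against -1.03 in the next line. GID4 changed by 0.47 in CCRF-CEM against 0.18, and MKLN1 by 0.31 in ALL-SIL against 0.11.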

How the results depend on the processing

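Of the mean changes of the YPEL probe sets and the lead of YPEL5 under the alternatives, 143 values stayed within 1 SD in the same direction, 6 moved by more and 1 reversed. With an offset of 4, YPEL2 1556420_s_at changed by 0.47 (0.16 with 16) and YPEL5 led the mean of its paralogs by 0.33 (0.50 with 16). With an offset of 64 the changes were 0.51 for YPEL1 228296_at, 0.80 for YPEL1 228788_at, 0.78 for YPEL5 222408_s_at, 0.045 for YPEL2 1556420_s_at, 0.51 for YPEL2 227020_at, 0.28 for YPEL3 223179_at and 0.24 for YPEL4 (0.96, 0.57 and 0.60 with 16), and NMNAT1 was higher by 0.18 (0.29 with 16). YPEL3 232077_s_at gave -0.018 without HPB-ALL (-0.018 to 0.10 over the lines left out), and YPEL5 217783_s_at 1.05 to 1.16. The probe sets called lower and higher numbered 168 and 397, against 278 and 787 with an offset of 4, 74 and 113 with 64, 195 and 314 with quantile normalization, 209 and 311 with median centring, and 4 and 14 with no replicate block. The genes called lower and higher numbered 1390 and 2339, against 1840 and 1901 with median centring, 1711 and 1955 with quantile normalization, and 6 and 19 with no replicate block. The arrays are paired by their cell line, and without that block 0 of the CTLH partners, the Yippee-fold genes and the neighbours passed in either direction. CTLH partners passing as higher (2) numbered 1 with an offset of 4, quantile normalization, median centring or P12-ICHIKAWA and TALL-1 as 1 line, 4 with an offset of 64, 5 with the dim filter and 1 to 2 without single lines. CTLH partners passing as lower (1) numbered 0 with the mean over probe sets. Yippee-fold genes passing (1 higher, 1 lower) numbered 0 and 0 with an offset of 4 or the 2 close lines as 1, 0 higher with quantile normalization or median centring, and 0 to 1 in each direction without single lines. Neighbours passing as higher (4) numbered 2 with an offset of 4 and 2 to 4 without single lines, and as lower (1) 3 with an offset of 64 or median centring and 4 with the dim filter. Of the values of single genes, 445 kept direction and side of the threshold, 56 lost and 19 gained a call, and 16 reversed: with the mean over probe sets RANBP9 (-0.021), GID4 (-0.13), ARMC8 (0.0015), PPIL2 (-0.00055) and CLTC (0.0080), SERPING1 (-1.58e-05 with an offset of 4, -0.015 with quantile normalization, -0.032 with median centring, and -0.021 to 0.038 without single lines, below 0 without CCRF-CEM, HPB-ALL, Molt-4 or TALL-1), PPP4C (-0.0097 with median centring, -0.014 to 0.056 without single lines, below 0 without Molt-4 or TALL-1) and RMND5A (-0.044 to 0.0012 without single lines, above 0 without Molt-4). The cause was not tested. The dim filter gave no value for YPEL2, YPEL3, YPEL4 or the lead of YPEL5, since their probe sets were removed.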
